A study of Daphnia magna with 80 samples.

Results

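Whole females of Daphnia magna, a freshwater crustacean, aged 20 and 25 days were compared with females aged 10 and 15 days by RNA sequencing. The libraries were chosen by the sex and age in their sample titles. They were 5 libraries of 20 to 25 days (2 of 20 days and 3 of 25 days) and 6 libraries of 10 to 15 days (3 of each age), which is 11 of the 76 samples with a group in the series. The third library titled as 20 days was left out because its labels mark it as mislabelled. Animals of both periods were of the strain Bham2, received no treatment, were kept in High Hardness COMBO medium and were frozen with an empty brood pouch. Males of the same strain, aged 20 to 25 days (n = 4) and 10 to 15 days (n = 6), were used for a comparison with the other sex. The gene counts per library were 12915276 to 26994907 at 20 to 25 days and 17965352 to 24251473 at 10 to 15 days.

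Daphnia reproduce mostly without mating. A female lays eggs into a brood pouch under the carapace, where they develop into genetically identical daughters, or under some environmental cues into males. She moults, releases the young and lays the next clutch in a repeated cycle, and keeps growing after maturity. RNA from a whole animal therefore mixes gut, carapace epidermis, muscle, fat body and ovary, and in such a mixture fewer cells of a type and less RNA per cell cannot be told apart. The labels do not say how many animals a library held or whether libraries of an age came from separate cultures, so p-values measure only the spread between these samples. The count table gives gene IDs without names, and 0 of its 26646 IDs matched the reference table, so no role is given for a gene named here.

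The sex labels of the 11 libraries were checked with genes that differ between the sexes in other libraries of the series, described further on. The sex score, the mean log2 level of male-biased genes less that of female-biased genes, was -3.57 to -2.77 at 20 to 25 days and -3.88 to -2.33 at 10 to 15 days in females. In the 10 males of the same ages it was 0.119 to 0.865, so the sexes did not overlap.

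A principal component analysis of the 2000 most variable genes grouped the libraries by age, along a first component with 43% of the variance and a second with 32%. The 20-day libraries lay between those of the other ages. Libraries of 1 age correlated at 0.939 to 0.982 (log2 of CPM, the counts scaled to a common library size), with a median of 0.973. The median was 0.94 between the 2 ages of a period (0.864 to 0.952) and 0.912 between periods (0.842 to 0.959), and these ranges overlapped. Replicate 1 of 10 days lay apart from the rest, at -96.5 on the first component, where the other 10 libraries ran between -40.4 and 39.6.

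The periods also differed in a technical measure. Each library carried synthetic spike-in RNAs (SIRVs), and the log2 ratio of the SIRV7 to the SIRV1 counts was 0.0438 to 0.177 at 20 to 25 days and -0.417 to -0.181 at 10 to 15 days. The periods did not overlap on this ratio (difference in means 0.42, exact permutation test, two-sided p = 0.00216, the smallest that 5 against 6 libraries allow). Within these 11 libraries the ratio and the period cannot be told apart. In males the ratio was mixed, at -0.334 to 0.170 at 20 to 25 days and -0.372 to 0.217 at 10 to 15 days. The share of counts in all spike-ins did not separate the periods, with means of 0.662% at 20 to 25 days and 0.503% at 10 to 15 days (difference in mean log2 share 0.40, exact permutation test, two-sided p = 0.188). A block of 7 abundant genes that vary together, led by APZ42_024615, took a median of 16.7% of gene counts at 20 to 25 days and 10.7% at 10 to 15 days (difference in mean log2 share 0.26, exact permutation test, two-sided p = 0.584).

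**Figure D1:**
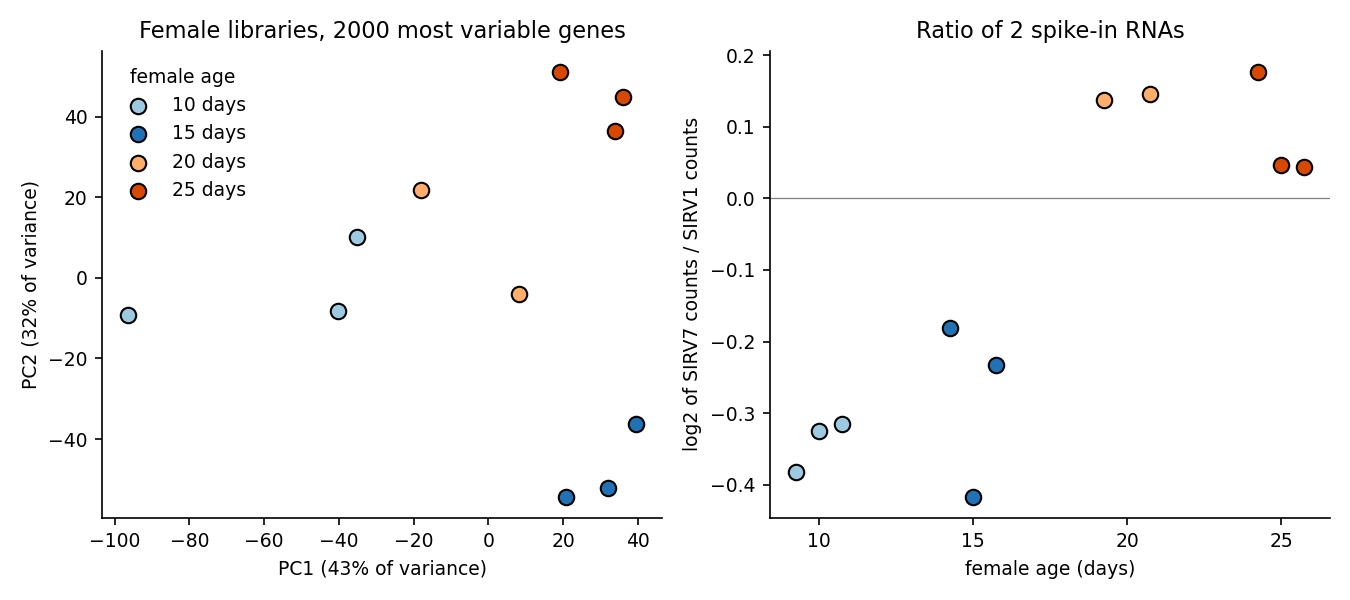
Left, the 11 female libraries on the first 2 principal components of log2 CPM, with 1 point per library and its age as colour; right, the log2 ratio of SIRV7 to SIRV1 counts per library against age in days. Libraries group by age, replicate 1 of 10 days is at the far left, and the ratio is above 0 in the 5 libraries of 20 to 25 days and at most -0.181 in the 6 libraries of 10 to 15 days.

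At 20 to 25 days 2339 genes were higher and 2735 were lower than at 10 to 15 days, of 15442 genes tested (edgeR quasi-likelihood test, adjusted p under 0.05). The genes called made up 32.9% of those tested, with 15.1% that rose and 17.7% that fell. The balance of rises and falls depended on the setting: 2551 rose and 2473 fell without the block of abundant genes, and 1707 rose and 1387 fell without the 15-day libraries. The sizes differed between the directions. Among risers the median log2 change was 0.86 and 904 at least doubled, while among fallers the median was -0.59 and 300 fell at least 2-fold. Changes of at least 4-fold numbered 112 up and 10 down, and the median over all genes tested was -0.01. Without any adjustment for multiple tests 6962 genes had p under 0.05.

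The call depended on the spike-in measures. With the SIRV7 to SIRV1 ratio as a covariate in the 11 libraries, 3 genes were called. A fit over all 39 female libraries, in which the ratio varies within and between ages, called 2596 genes with the ratio as a covariate (1336 rose and 1260 fell) and 2382 without it (1468 rose and 914 fell). Of the 2596 genes, 2090 were also called in the 11 libraries, each in the same direction. In the fit over 39 libraries the period change is still taken from the same 11. The other 28 bear mainly on the spread and on the slope of the ratio, so a shared direction is largely built in. With spike-in counts as the library sizes, the median of all genes moved by -0.43 on the log2 scale and 9 genes were called (6 rose and 3 fell). The directions below are relative to the library sizes set by all genes.

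The 2 periods did not overlap for 1040 genes higher at 20 to 25 days (6.73% of those tested) and 1422 lower (9.21%). Of the 2339 genes that rose, 1926 had no call within either period, between 15 and 10 or between 25 and 20 days. Of the 2735 that fell, 2177 had none. Over all 16703 genes in the fit by age, 16.5% were called between 15 and 10 days and 4.14% between 25 and 20 days. The lack of a call within a period was thus common to most genes. Of the risers, 256 were also called upward in each of the 4 pairs of a later with an earlier age, and 201 of these had no call within a period. Of the fallers, 196 were called in each of the 4 pairs and 158 of these had no call within a period. Among the 15442 genes, the pair of 20 against 10 days had the fewest calls, 516 up and 489 down, and so limits both counts. The pairs had 1769 up and 1191 down at 20 against 15 days and 2675 up and 3588 down at 25 against 10 days. At 25 against 15 days 3122 rose and 3736 fell. The mean level went up in the order of 10, 15, 20 and 25 days for 791 risers and down in that order for 742 fallers, an order of means with no test. The mean at 25 days lay past that at 20 days, in the direction of the period's change, for 1796 risers and 2499 fallers. The mean at 15 days lay past that at 10 days for 1074 risers and 839 fallers, and was thus on the other side for most of both. Where the step between 15 and 10 days was called, it went against the period's change for 276 risers and 220 fallers and with it for 68 and 109. The order of ages in these genes is partly set by their choice, since the same 11 libraries made the calls. No such counts over all genes are given, so they are a description with no test.

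The share of genes that fell differed by level. Of genes with a mean log2 CPM under 1, 12.8% rose and 3.54% fell. Of genes between 3 and 5, 14.1% rose and 24% fell, and of genes over 7, 17.4% rose and 29.2% fell. The share that rose thus stayed between 12.8% and 17.4% over the 5 classes of level, and the share that fell ran between 3.54% and 29.8%.

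The riser with the smallest p among genes of at least moderate level was APZ42_032249. Its level was 166 and 163 CPM in the 2 libraries of 20 days and 206, 240 and 205 CPM in the 3 of 25 days, against 62.4, 44.4 and 46.8 CPM at 10 days and 44.3, 69.0 and 54.4 CPM at 15 days. Each library of 20 to 25 days was above each of 10 to 15 days. The libraries of 10 and 15 days overlapped, while each of 25 days was above both of 20 days. That step, 0.44 ± 0.21 on the log2 scale, was not called (SE, edgeR, adjusted p = 0.251). The log2 change between the periods was 1.94 ± 0.16 (SE, edgeR, adjusted p = 0.000367). In females of 30 to 80 days the gene had a median of 134 CPM and ran between 31.6 and 327 CPM, so that the level of 20 to 25 days was not held in each later library. In males of 20 to 25 days it had 19.4 to 51.2 CPM, against 30.2 to 92.5 CPM in males of 10 to 15 days.

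APZ42_001694 moved by less but with little spread. It had 44.2 and 49.5 CPM at 20 days and 47.5, 42.3 and 45.5 CPM at 25 days, against 26.0, 27.6 and 29.7 CPM at 10 days and 31.6, 28.5 and 30.8 CPM at 15 days. The periods did not overlap, and the log2 change was 0.72 ± 0.06 (SE; edgeR, adjusted p = 0.000367). This rise was not called over all 39 female libraries with the spike-in ratio as a covariate, where the log2 change was 0.08 ± 0.18 (SE; edgeR, adjusted p = 0.831).

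The faller with the smallest p was APZ42_012179. It had 31.3 and 33.6 CPM at 20 days and 19.6, 24.7 and 21.3 CPM at 25 days, against 54.7, 61.8 and 61.3 CPM at 10 days and 72.8, 66.1 and 68.6 CPM at 15 days. Levels were lowest at 25 days, and the periods did not overlap. The log2 change was -1.24 ± 0.14 (SE; edgeR, adjusted p = 0.000734), and the step between 25 and 20 days was itself called, at -0.53 ± 0.11 (SE; edgeR, adjusted p = 0.0317). In males the level was 8.60 to 16.8 CPM at 20 to 25 days and 5.95 to 15.3 CPM at 10 to 15 days, below each of the 11 female libraries.

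APZ42_031795 had 5.29 and 5.84 CPM at 20 days and 6.23, 7.22 and 5.99 CPM at 25 days, against 11.2, 13.0 and 12.7 CPM at 10 days and 15.1, 16.1 and 16.7 CPM at 15 days. The highest library of 20 to 25 days was below the lowest of 10 to 15 days, and the log2 change was -1.14 ± 0.13 (SE; edgeR, adjusted p = 0.000755). Over the 39 female libraries with the ratio as a covariate, the change was 2.04 ± 0.35 for APZ42_032249, -1.17 ± 0.21 for APZ42_012179 and -1.15 ± 0.32 for APZ42_031795 (SE; edgeR, adjusted p = 0.000281, 0.000335 and 0.0153). These 3 calls, and that of APZ42_001694, were lost in the 11 libraries with the ratio as a covariate and with spike-in library sizes, with the direction kept. For APZ42_032249, APZ42_012179 and APZ42_031795 the log2 change was 2.95, -1.62 and -1.17 with the ratio and 1.48, -1.57 and -1.57 with spike-in library sizes. For APZ42_001694 it was 0.44 with the ratio and 0.29 with spike-in library sizes.

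**Figure D2:**
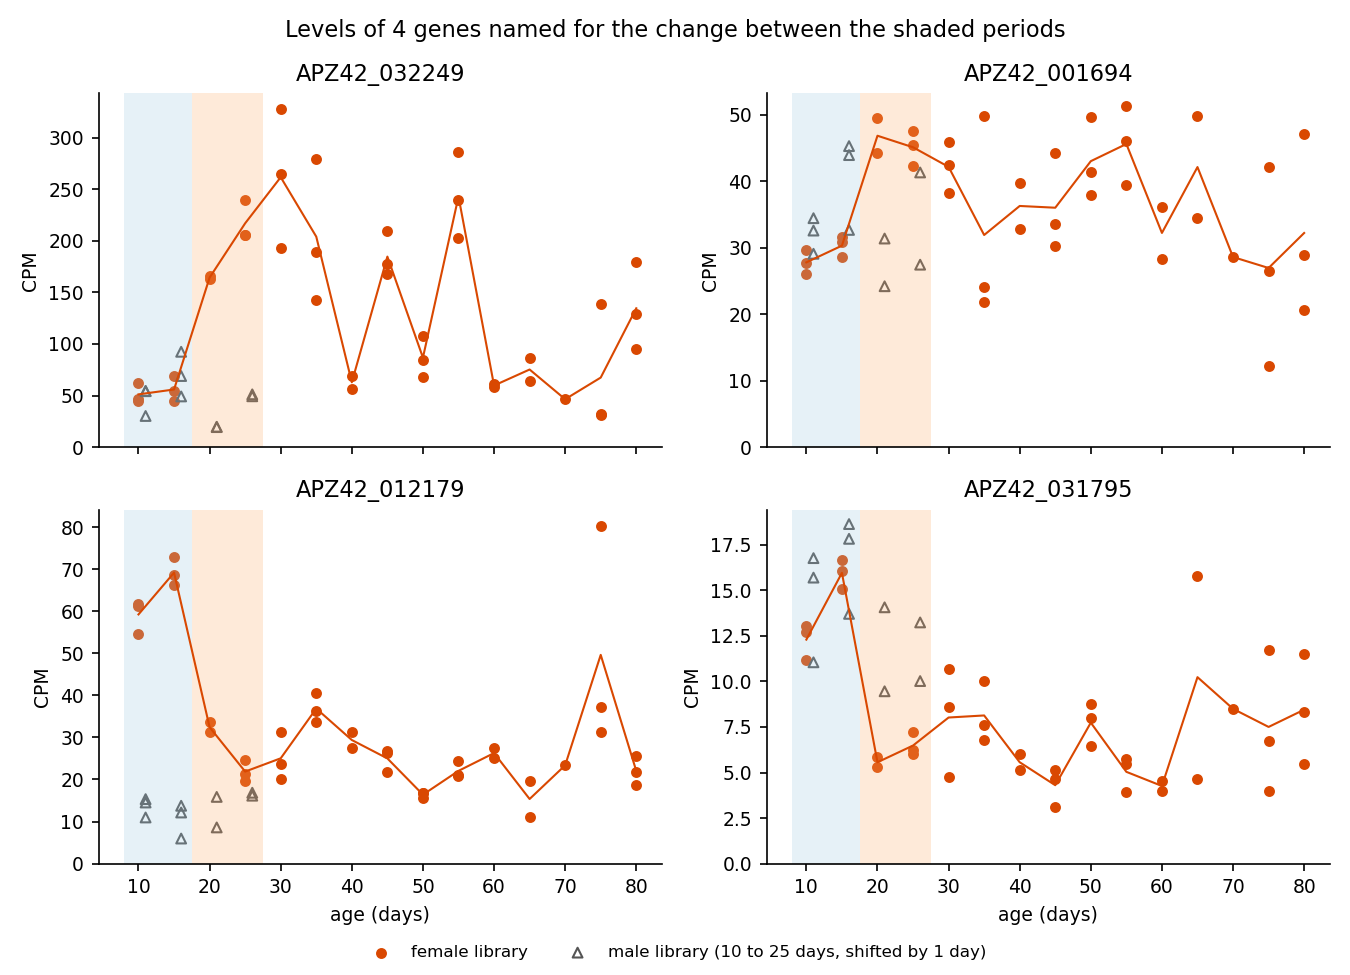
Level in CPM of the 4 genes against age in days, with 1 filled point per female library (ages 10 to 80 days), a line through the female mean of each age, and open triangles for male libraries of 10 to 25 days drawn 1 day to the right. Blue shading marks 10 to 15 days and orange shading 20 to 25 days; female points of the shaded periods do not overlap in any of the 4 panels, and after 25 days the points spread widely.

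The 4 ages were then compared step by step in a single fit of 16703 genes. At 15 against 10 days 1004 genes rose and 1750 fell, 6.01% and 10.5% of those tested and 16.5% together. At 20 against 15 days 1863 rose and 1193 fell (11.2% and 7.14%, together 18.3%). At 25 against 20 days 126 rose and 566 fell (0.754% and 3.39%, together 4.14%). Over the whole span, 25 against 10 days, 2760 rose and 3708 fell (16.5% and 22.2%, together 38.7%). The steps share libraries, so each is given by its own count. With spike-in library sizes the median of all genes moved by -0.60, 0.31, -0.74 and -1.04 (log2) in these 4 contrasts. The counts were then 72 up and 3720 down at 15 against 10 days, 1543 up and 13 down at 20 against 15 days, 26 up and 5281 down at 25 against 20 days, and 277 up and 10214 down at 25 against 10 days.

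The counts of the steps rested on few libraries. The 15 against 10 day count was 2754, and it was 1637 without replicate 1 of 10 days and 1481 without replicate 3 of 15 days. The 20 against 15 day count was 3056, and it was 536 without replicate 1 of 20 days, 1526 without replicate 1 of 15 days and 1690 without replicate 3 of 15 days. The 25 against 20 day count was 692, and it was 334 without replicate 2 of 20 days, 355, 324 and 223 without replicates 1, 2 and 3 of 25 days, 429 without replicate 2 of 10 days, and 315 and 187 without replicates 1 and 3 of 15 days.

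**Figure D3:**
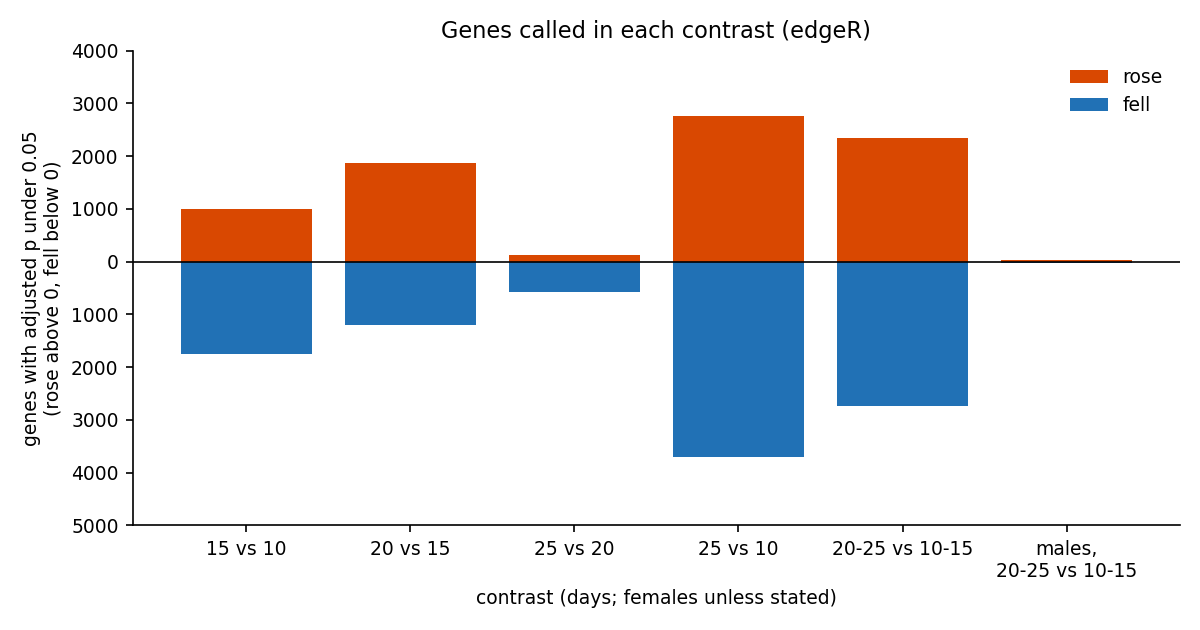
Number of genes with adjusted p under 0.05 (edgeR) in each contrast, with genes that rose drawn above 0 and genes that fell below it. The 25 against 10 day contrast has 6468 genes, the 25 against 20 day contrast 692, the 20 to 25 against 10 to 15 day contrast 5074, and the same contrast in males 50.

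The 15 against 10 day step held the most falls of at least 4-fold among the 4 contrasts. They numbered 586 there, 12 at 20 against 15 days, 145 at 25 against 20 days and 443 at 25 against 10 days. Rises of at least 4-fold numbered 89, 506, 8 and 521 in the same order. APZ42_017384 had 8.11, 6.38 and 5.08 CPM at 15 days, against 94.2, 64.1 and 57.7 CPM at 10 days (log2 change -3.52 ± 0.27, SE; edgeR, adjusted p = 0.000372). It had 69.4 and 53.2 CPM at 20 days and 55.6, 62.1 and 87.7 CPM at 25 days, so the low level was seen in the 3 libraries of 15 days and not in the other 8. APZ42_010830 had the same course, with 6.28, 6.01 and 4.90 CPM at 15 days, against 29.9, 24.4 and 22.5 CPM at 10 days (log2 change -2.21 ± 0.15, SE; edgeR, adjusted p = 0.000372), and 22.2 to 27.0 CPM in the 5 libraries of 20 to 25 days.

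Of the rises in that step, APZ42_033287 stayed high. It had 1625, 1448 and 1295 CPM at 15 days, against 327, 415 and 525 CPM at 10 days (log2 change 1.74 ± 0.16, SE; edgeR, adjusted p = 0.000372), and 1227 to 1612 CPM at 20 to 25 days. APZ42_023594 was highest at 15 days, with 40.2, 52.0 and 65.6 CPM, against 12.3, 15.9 and 14.1 CPM at 10 days (log2 change 1.86 ± 0.19, SE; edgeR, adjusted p = 0.00046). At 20 days it had 20.2 and 19.1 CPM and at 25 days 24.6, 20.8 and 30.1 CPM. None of these 4 genes was called between the 2 periods (edgeR, adjusted p of 0.235 to 0.419). With the 4 ages as groups in the same contrast, 3 of them were called: APZ42_033287, APZ42_010830 and APZ42_017384 were higher at 20 to 25 days by 0.87, 1.08 and 1.63 (log2; edgeR, adjusted p = 0.000371, 0.000121 and 0.000182).

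Within the later period, APZ42_017195 was higher at 25 days, with 63.4, 54.4 and 48.0 CPM, against 17.3 and 14.1 CPM at 20 days (log2 change 1.85 ± 0.25, SE; edgeR, adjusted p = 0.00749). At 10 to 15 days it had 8.03 to 15.6 CPM. APZ42_015592 had 52.5, 61.9 and 52.7 CPM at 25 days, against 33.8 and 28.1 CPM at 20 days (log2 change 0.88 ± 0.13, SE; edgeR, adjusted p = 0.0104), a call lost with spike-in library sizes. APZ42_017562 had 4.43, 5.24 and 1.99 CPM at 25 days, against 63.1 and 27.2 CPM at 20 days (log2 change -3.56 ± 0.39, SE; edgeR, adjusted p = 0.00305) and 18.6 to 25.8 CPM at 10 to 15 days, so its low level was that of 25 days. The other named faller of this step, APZ42_028650, belongs to a group of genes described next.

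Among the 11 libraries, a few genes were high in those of 20 days alone. The largest rise between the periods, APZ42_007222 (log2 change 9.75 ± 1.97, SE; edgeR, adjusted p = 0.00503), came from 168 and 1216 CPM at 20 days. At 25 days the gene had 3.36, 0.993 and 2.94 CPM, against 0.0389 to 0.805 CPM at 10 to 15 days. A set was formed, after these values were seen, of genes with at least 5 CPM in both 20-day libraries and at least 5 times the highest of the other 9 libraries. It held 6 genes, among them APZ42_028650, which had 54.7 and 278 CPM at 20 days, 4.33, 4.24 and 4.04 CPM at 25 days and 3.47 to 6.58 CPM at 10 to 15 days. Because the values chose them, the 6 genes are a description with no test.

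The 6 genes kept nearly 1 ratio between the 20-day libraries. Replicate 2 had 5.09 to 7.26 times the CPM of replicate 1 (median 6.96), and the sums were 3484 and 507 CPM. Among the other 74 samples of the series, the highest sum was 4644 CPM, in replicate 2 of females of 40 days, and it was the highest of those samples for each of the 6 genes. APZ42_028650 also had 118.5 CPM in the 1 library of 70 days and up to 102 CPM at 80 days. The remaining 73 samples had sums of 4.87 to 129 CPM, with a median of 12.4 CPM.

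**Figure D4:**
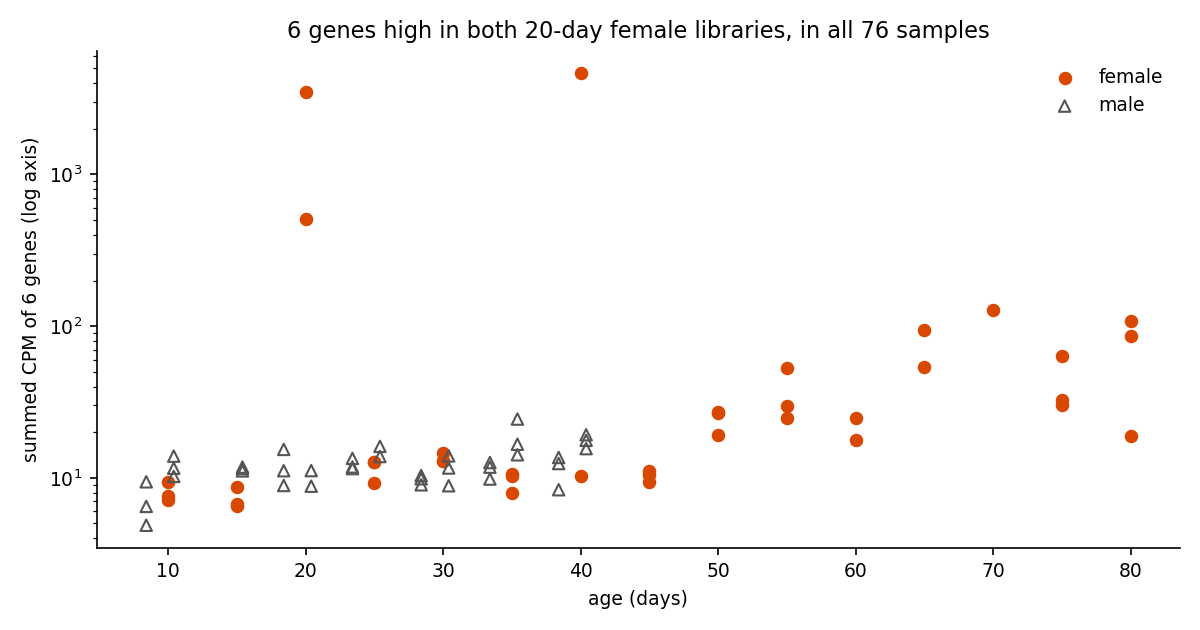
Summed CPM of the 6 genes, on a log axis, in each of the 76 samples against age in days, with filled points for females and open triangles for males. The 2 libraries of 20 days, at 507 and 3484 CPM, and 1 library of 40 days, at 4644 CPM, stand above the remaining 73, whose highest is 129 CPM.

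The changed genes were sorted by sex bias with libraries that the comparison does not use, 8 of females of 30 to 40 days and 18 of males of 28 to 40 days. Of 16972 genes, 2152 were higher in those females and 2833 in those males by at least 2-fold (edgeR, adjusted p under 0.05; 12.7% and 16.7% of genes tested). Between the periods 772 of 2125 female-biased genes tested fell (36.3%) and 379 rose (17.8%), with a median log2 change of -0.27, where 17.7% of all genes fell. Of 2017 male-biased genes tested, 120 fell (5.95%) and 143 rose (7.09%), and of 11165 genes in neither class 1830 fell (16.4%) and 1813 rose (16.2%). The classes also differ in level, with age means of 3.68 to 4.01 log2 CPM for female-biased and 0.188 to 1.04 for male-biased genes in these females. Of all genes with a mean log2 CPM of 3 to 5, 24% fell, and of those under 1, 3.54% fell. The part of level in the class counts was not tested. Over the 39 female libraries with the spike-in ratio as a covariate, 483 of 2152 female-biased genes fell (22.4%) and 232 rose, against 6.06% of genes in neither class that fell in that fit. With spike-in library sizes none of the female-biased genes fell and 4 rose, and the class median was -0.66, against -0.43 for genes in neither class.

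The 15 against 10 day step gave other counts by class. Of 2378 male-biased genes tested, 697 fell (29.3%) and 18 rose, with a median log2 change of -0.58, where 10.5% of all genes fell. Of 2147 female-biased genes, 324 rose (15.1%) and 118 fell, where 6.01% of all genes rose. Without replicate 1 of 10 days, 505 of 2334 male-biased genes fell and 167 of 2147 female-biased genes rose. With spike-in library sizes 1080 male-biased genes fell, and of the female-biased genes 42 rose and 337 fell (15.7%). Genes in neither class fell at 19.4% under that scaling, and the class medians were -0.39 for female-biased genes, -1.19 for male-biased genes and -0.59 for neither.

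The mean log2 CPM over the male-biased genes was 1.12, 1.06 and 0.955 at 10 days, 0.210, 0.220 and 0.135 at 15 days, 1.02 and 0.451 at 20 days and 0.484, 0.474 and 0.591 at 25 days. The 3 libraries of 15 days were lowest and close together, and the 20-day libraries differed between themselves more than those of any other age. The mean over the female-biased genes was 3.45 to 3.81 at 10 days, 3.98 to 4.03 at 15 days, 3.79 and 4.02 at 20 days and 3.68 to 3.91 at 25 days. In males of 10 to 25 days the class means were 2.38 to 2.73 for male-biased and 1.79 to 2.32 for female-biased genes.

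**Figure D5:**
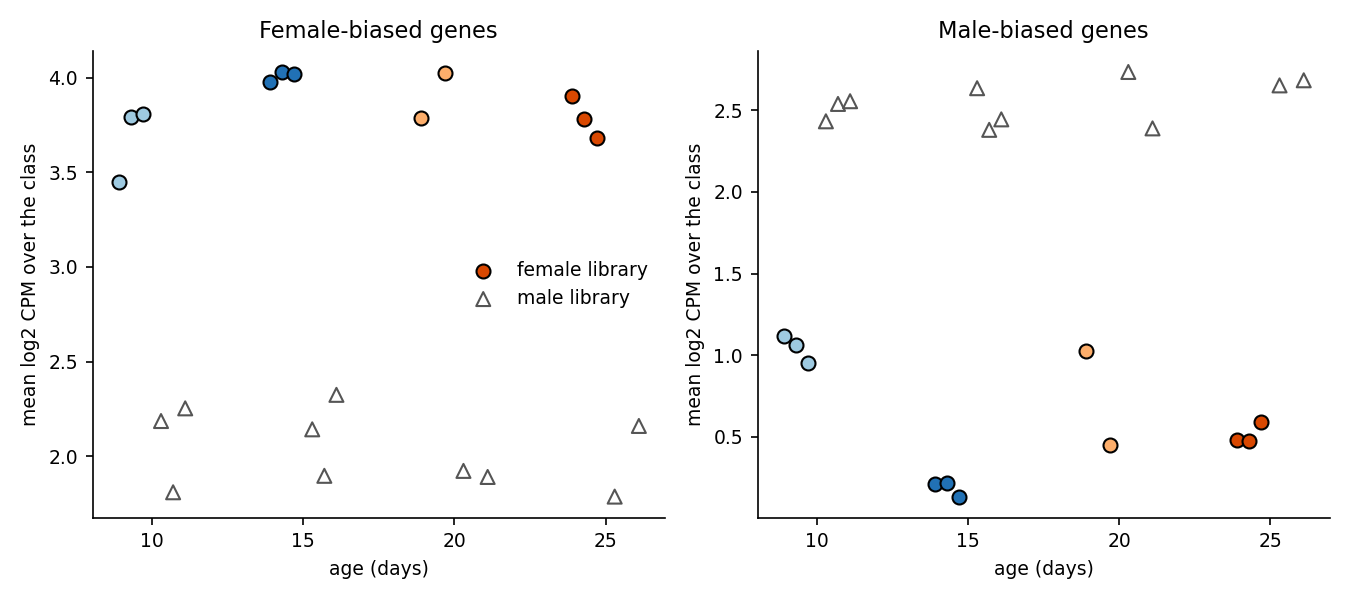
Mean log2 CPM over the female-biased genes (left) and the male-biased genes (right) in each library against age in days, with filled points for female and open triangles for male libraries. Female libraries of 15 days lie at the low end for male-biased genes, between 0.135 and 0.220, and the male libraries lie apart from the female ones in both panels.

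The 586 genes that were at least 4-fold lower at 15 than at 10 days were mostly of the male-biased class. That class had 418 of them (71.3%, against 16.7% of the 16972 genes sorted by sex bias), and 26 were female-biased. Male-biased genes were of low level in these females, and the part of level was not tested. The median log2 CPM of the 586 genes was 2.81 at 10 days, -1.02 at 15 days, 1.31 at 20 days and 0.92 at 25 days. At later female ages it ran between -0.34 at 35 days and 3.74 at 50 days, with 0.68 at 45 days, and it was 3.85 over males of 10 to 25 days. Among the 10-day libraries, replicate 1, which lay apart on the first component, was the highest for 374 of the 586 genes. At 20 days 403 of the 586 lay above each library of 15 days in both libraries, and at 25 days 359 did so in the 3 libraries. The set was chosen for a high level at 10 days and a low level at 15 days. A higher level elsewhere, and which 10-day library was highest, are thus a description. The same counts over all genes are not given here. The median in single libraries was 2.45 and 0.27 at 20 days and 0.79 to 0.93 at 25 days, against 2.39 to 3.21 at 10 days and -0.98 to -0.90 at 15 days.

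The same contrast was made in males, to see whether the change between the periods is shared by the sexes. Across 14928 genes, the female change and the change fitted on males alone had a Pearson correlation of -0.0064 and a Spearman correlation of 0.02, a description across genes, which are not replicates. Of the genes that rose in females, 52.6% had a positive male estimate, and of those that fell, 57.1% had a negative one, against 50% in each direction for genes with no call. In a fit over both sexes of 17155 genes, 26 genes rose and 24 fell in males of 20 to 25 days against males of 10 to 15 days, 0.152% and 0.14% of those tested and 0.291% together, and 2038 had p under 0.05 before adjustment. Fitted on the males alone, 0 of 16192 genes passed, with 1484 at an unadjusted p under 0.05 and a smallest adjusted p of 0.165 (edgeR), and DESeq2 in the joint fit called 290. Leaving out single male libraries moved the count of 50 to between 0 and 100: it was 0 without replicate 1 of 25 days, 10 without replicate 2 of 25 days, 100 without replicate 2 of 20 days, and 19, 87 and 15 without replicates 1, 2 and 3 of 10 days. The block of abundant genes held 22.5% to 65.3% of counts in males of 20 to 25 days and 5.95% to 47.4% in males of 10 to 15 days, and its part in the low count was not tested.

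Among the genes called in males, APZ42_018968 had 16.2, 14.8, 18.2 and 19.2 CPM at 20 to 25 days and 4.62 to 9.55 CPM at 10 to 15 days (log2 change 1.23 ± 0.18, SE; edgeR, adjusted p = 0.012). In females it had 10.9 to 17.5 CPM at 20 to 25 days and 10.6 to 14.0 CPM at 10 to 15 days. APZ42_017621 rose in both sexes, by 0.93 ± 0.14 in males and 0.68 ± 0.14 in females (log2, SE; edgeR, adjusted p = 0.012 and 0.00487). APZ42_017607 fell in males by 0.83 on the log2 scale (edgeR, adjusted p = 0.012), with 11.8 to 16.9 CPM at 20 to 25 days and 18.1 to 27.8 CPM at 10 to 15 days. APZ42_003121 had 2.32 to 9.67 CPM in males of 20 to 25 days and 12.4 to 52.5 CPM in males of 10 to 15 days (log2 change -2.45 ± 0.40, SE; edgeR, adjusted p = 0.0141), while females had 661 to 1375 CPM at 20 to 25 days and 1165 to 2022 CPM at 10 to 15 days. None of these 4 calls was kept without replicate 1 of 25-day males with the males fitted alone, or with spike-in library sizes, and the last was lost without replicate 2 of 25-day males too.

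The change itself differed between the sexes for 1045 genes (6.09% of 17155; edgeR, adjusted p under 0.05). The female change was the more positive for 600 (3.5%) and the more negative for 445 (2.59%). The female change was called for 908 of them and the male change for 28, with no gene called in both, and the 2 estimates had opposite signs for 900. Of the 1029 also tested between the female periods, 532 had risen and 384 had fallen in females. Of the rest, 55 of the more positive and 58 of the more negative had no call there. The genes were chosen by the difference between these same estimates, which favours opposite signs, and the female libraries are shared. These counts are therefore a description with no test, and no share of opposite signs over all genes is given. Without single libraries the count of 1045 was 680 (10-day females, replicate 3), 668 (15-day females, replicate 1) and 1667 (20-day females, replicate 2). It was 558, 515 and 568 (25-day females, replicates 1, 2 and 3) and 620 (20-day males, replicate 1). The SIRV7 to SIRV1 ratio separated the periods in females and was mixed in males. It was not a covariate in this fit, so its part in the difference between the sexes was not tested.

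APZ42_018841 showed the difference with the smallest p. In females it had 141, 110, 141, 135 and 147 CPM at 20 to 25 days and 61.9 to 76.3 CPM at 10 to 15 days, while males had 82.2 to 103 CPM at 20 to 25 days and 95.5 to 125 CPM at 10 to 15 days. The female change exceeded the male one by 1.32 ± 0.15 (log2, SE; edgeR, adjusted p = 0.000525). APZ42_017519 had 129 to 170 CPM in females of 20 to 25 days and 53.8 to 79.2 CPM in females of 10 to 15 days, with 36.6 to 41.5 CPM in males of 20 to 25 days and 35.0 to 49.8 CPM in males of 10 to 15 days (difference 1.46 ± 0.18, log2, SE; edgeR, adjusted p = 0.000596). In both genes the female periods did not overlap.

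APZ42_010850 went the other way, with 20.9 to 38.1 CPM in females of 20 to 25 days and 45.0 to 75.1 CPM in females of 10 to 15 days. Males were far lower, with 2.47 to 4.19 CPM at 20 to 25 days and 1.15 to 2.26 CPM at 10 to 15 days (difference -1.80 ± 0.27, log2, SE; edgeR, adjusted p = 0.00263). APZ42_024854 had 36.6 to 53.4 CPM in females of 20 to 25 days and 73.4 to 104 CPM in females of 10 to 15 days, and 18.1 to 21.9 CPM in males of 20 to 25 days and 16.0 to 20.1 CPM in males of 10 to 15 days (difference -1.07 ± 0.16, log2, SE; edgeR, adjusted p = 0.00263). The 4 differences were not called with spike-in library sizes, where 9 genes were. They were then 0.95, 1.07, -2.17 and -1.42 (log2), in the order given here.

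Whether the changes went on at later ages was read from 28 female libraries of 30 to 80 days that the comparison does not use. In those, 295 genes had a rising and 197 a falling slope with age, 1.8% and 1.2% of 16399 tested and 3% together (edgeR, adjusted p under 0.05). Of the genes that fell by 20 to 25 days, 2202 of 2722 had a negative later slope (80.9%), against 47.7% of the genes with no call. Of the genes that rose, 1398 of 2339 had a positive later slope (59.8%), against 52.3% of the genes with no call. Most single slopes were not called. Of the 2722 fallers 27 had a called falling slope and 8 a rising one. Of the 2339 risers 92 had a called rising slope and 51 a falling one. Of the 10261 genes with no call between the periods, 182 had a rising and 117 a falling slope. At 30 to 45 days alone 34.7% of fallers had a negative slope, against 54.2% of the genes with no call. Of risers 52% had a positive slope there, against 45.8% of the genes with no call. For fallers the direction seen over the full range was thus turned at 30 to 45 days, where 65.3% had a positive slope. None of these single slopes was called.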

How the data were processed

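Whole-animal RNA libraries (TruSeq mRNA kit, paired reads) were sequenced on an Illumina instrument, per the labels' protocols. The authors deposited whole-number counts per gene ID, not normalised, with 7 further rows of SIRV spike-ins, in 80 columns. The submitters' processing notes name TopHat2 2.1.1 and DESeq2 1.20. How reads were counted, whether by strand, and on which build and annotation, is not stated in the sources used here. Counts of overlapping or near-identical genes are therefore uncertain. The authors' tables of age, sex and interaction effects were not used.

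Samples were grouped by the sex and age in their titles. Columns of 3 samples marked as mislabelled were left out, and the technical runs of 1 male sample were summed. Spike-in rows entered neither tests nor library sizes unless stated. Tests were run in edgeR 4.0.16 with R 4.3.3 (TMM, filterByExpr, quasi-likelihood F-test, Benjamini-Hochberg adjusted p under 0.05). Standard errors were taken as a change's size over the root of its F statistic. CPM used TMM sizes over 76 samples, and log2 CPM a prior count of 2. Sex-biased genes passed the same test with at least a 2-fold difference. The abundant block holds the genes that correlate at 0.9 or more with the most abundant one. Named genes were, per comparison, the 2 that rose and the 2 that fell with the smallest p among genes whose mean log2 CPM was 3 or more.

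The comparison, its members and the tests were chosen with earlier results of these data known. Alternatives were relative log expression, spike-in library sizes, no filter, DESeq2 1.42.0, limma-voom (limma 3.58.1), a replicate block, other codings of age, covariates, and each library left out. The fits over 39 females with the spike-in ratio, without the 15-day or 20-day libraries, and with males alone, and the settings of the sex-bias counts, were added after the data were seen. The fits were tested on simulated counts. Figures were drawn with matplotlib 3.10.9.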

Additional observations from a re-analysis of the deposited data

Results flagged for a closer look

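In 76 groups of 4 to 6 samples, 7 held a sample whose gap to its nearest neighbour took up most of the group's range. Chance gives about 1 in 20 groups. Replicate 2 of 20-day females was such a sample for APZ42_028650, at 278 CPM, and for APZ42_007222, at 1216 CPM. Replicate 2 of 10-day females was one for APZ42_024615, at 171800 CPM, and for the share of the abundant block that this gene leads, at 36.1% of gene counts. Among males, replicate 2 of 25 days was one for APZ42_017607, at 16.9 CPM, and for the log2 ratio of SIRV7 to SIRV1, at 0.17, and replicate 2 of 10 days for APZ42_017621, at 28.2 CPM.

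The change between the periods differed between females and males by an interaction test (edgeR, adjusted p under 0.05) for 1045 genes. The SIRV7 to SIRV1 ratio separated the periods in females but not in males, and was not a covariate in that test. Among the named genes, the female change less the male change on the log2 scale was 2.68 for APZ42_032249, 0.95 for APZ42_001694 and -1.49 for APZ42_012179 (adjusted p = 0.00263, 0.00865 and 0.00865). It was -0.93 for APZ42_018968, 0.82 for APZ42_017607 and 2.08 for APZ42_003121 (adjusted p = 0.0334, 0.0103 and 0.0215). It was 1.32 for APZ42_018841, 1.46 for APZ42_017519, -1.80 for APZ42_010850 and -1.07 for APZ42_024854 (adjusted p = 0.000525, 0.000596, 0.00263 and 0.00263).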

How the results depend on the processing

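The count of 5074 genes between the female periods was 9 with spike-in library sizes, 3 with the spike-in ratio as a covariate, 2382 over 39 females, 2596 over 39 females with the ratio, 3094 without the 15-day libraries, 3818 with a replicate block, and 3589 to 5770 with single libraries left out. With spike-in library sizes the steps had 1556 genes (20 against 15 days), 5307 (25 against 20) and 10491 (25 against 10), males had 1, and the sex difference 9. DESeq2 gave 1542 genes for 25 against 20 days, 290 in males and 1956 for the sex difference. The replicate block gave 1626 for 20 against 15 days, 94 for 25 against 20, 14 in males and 651 for the sex difference. Males alone gave 0. Replicate numbers do not pair these samples: same-numbered libraries correlated at -0.256 to 0.0608 in their deviations, and 0 of 11 libraries correlated best with its own number. With single libraries left out the steps had 1481 to 3020 genes (15 against 10), 536 to 3831 (20 against 15), 187 to 841 (25 against 20) and 4632 to 6601 (25 against 10), males 0 to 100 and the sex difference 515 to 1667. The difference in log2 share was 0.28 to 0.55 for the spike-ins and 0.0049 to 0.57 for the abundant block. The share of fallers with a negative later slope was 34.7% at 30 to 45 days, turning the direction, and 86.9% with spike-in library sizes. For genes with no call these shares were 54.2% and 56.3%. The share of risers with a positive later slope was 52% in both, against 45.8% and 43.7% of genes with no call. Female-biased genes that fell numbered 483 over 39 females with the ratio and 0 with spike-in library sizes; male-biased genes that fell at 15 days numbered 1080 with spike-in library sizes and 505 without replicate 1 of 10 days. For 20 named genes, 373 of 400 checks kept the call and 27 lost it, 13 of them with spike-in library sizes, and none reversed. The genes were chosen for a small p in these data, and most checks left out a single library, which favours a kept call. The ratio as a covariate in the 11 libraries was run only for the genes named for the change between the female periods. Each of those lost its call. Beyond the settings' own construction (fewer samples, or a ratio aligned with the periods), the cause was not tested.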

Other observations

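Gene IDs with consecutive numbers were compared after the calls were made. Of fallers whose next ID was tested, 24.9% had a next ID that also fell, against 20.5% of all such IDs. Of risers, 17.6% had a next ID that also rose, against 14.1%. The files do not say whether consecutive IDs are neighbours in the genome, and these values carry no test.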
